A study of Mus musculus with 8 samples.

Results

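Effector regulatory T cells (eTreg cells) that had been sorted from tumors of mice with or without Blimp1 in their Foxp3-expressing cells were compared by RNA sequencing. The comparison used 4 of the 8 libraries of the series, 2 per genotype, and these were every library that the labels assign to tumor. KO tumor replicates 1 and 2 came from Prdm1fl/flFoxP3YFP-Cre mice, and WT tumor replicates 1 and 2 from FoxP3YFP-Cre mice. All mice were C57BL/6, carried the YFP-Cre allele at the Foxp3 locus and bore subcutaneous B16-OVA melanoma of up to 1.5 cm3, and all had been immunized with NP-OVA in adjuvant. Cre from the Foxp3 locus is meant to delete Prdm1 in cells that express Foxp3 or did so earlier. Whether other cells of the tumor kept the gene was not tested. The sort gate took CD45+ CD44+ YFP+ CD4+ CD3+ cells. The labels do not say whether the replicates came from separate mice or pools, so each p-value below measures only the spread between these libraries. Each library held 27834676 to 35318365 counts on genes, at which 3 counts, taken as the floor of detection, correspond to 0.0849 to 0.108 CPM (counts scaled to library size).

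Treg cells are CD4+ T cells that restrain immune responses, and Foxp3 is their lineage factor. Helios and Eos, encoded by Ikzf2 and Ikzf4, act with Foxp3, while CD25 (Il2ra), CTLA-4, CCR8 and folate receptor 4 (Izumo1r) are surface proteins on which Treg cells, and those of tumors above all, are rich. Blimp1, the product of Prdm1, is a zinc finger repressor that marks effector Treg cells and is known to sustain Il10. CD8+ T cells and NK cells kill through granzymes and perforin, and Eomes is a T-box factor of both.

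Prdm1, on chromosome 10 from 44437177 to 44528501 of GRCm38 on the minus strand, was measured in all 4 libraries. Its level was 84.8 CPM in KO replicate 1, 70.5 CPM in KO replicate 2, 101 CPM in WT replicate 1 and 181 CPM in WT replicate 2. Both KO libraries lay below both WT libraries, with a log2 fold change KO over WT of −0.86 ± 0.37 (SE, n = 2 and 2). The adjusted p from edgeR was 0.554. Counts were summed over the exons of a gene, so exons inside and outside the floxed segment could not be separated. Prdm1 was also expressed per 1000 CPM of summed Cd3d, Cd3e and Cd3g, the genes of the T cell receptor complex. It then stood at 116 and 25.2 in the KO libraries against 39.2 and 53.7 in the WT libraries. KO replicate 1 thus lay above both WT libraries and KO replicate 2 below both. The log2 fold change of Prdm1 with that scaling was 0.60, below the median of 1.33 of all genes on that scale.

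The RNA of the libraries labelled KO, called KO here for short, went in part against the gate. Foxp3 was at 9.56 and 2.81 CPM in KO replicates 1 and 2, against 23.8 and 57.0 CPM in WT. Cd4 was at 138 and 62.1 CPM against 755 and 1023 CPM. The KO libraries were thus the lower ones for both Foxp3, whose locus carries YFP, and Cd4. Cd8a was at 203 and 1139 CPM in KO against 67.2 and 9.13 CPM in WT, and Cd8b1, its partner chain, at 177 and 945 against 71.3 and 36.3 CPM. KO replicate 2, labelled as CD4+ Treg cells, thus held far more Cd8a than Cd4 RNA. The 20 myeloid markers summed to 22554 CPM in KO replicate 1, 3076 in KO replicate 2, 5175 in WT replicate 1 and 1428 in WT replicate 2, and none of them was at 0. The Cd3 genes summed to 732, 2795, 2591 and 3369 CPM in the same order. KO replicate 1 therefore stood apart with the most myeloid and the least T cell RNA. The 7 NK markers summed to 80.9 and 131 CPM in KO against 10.96 and 1.43 CPM in WT, and the 8 melanoma markers to 3156, 815, 2015 and 1126 CPM, with the groups overlapping. In such bulk samples fewer cells of a type and less RNA per cell cannot be told apart, and the part of these other cells in each difference below was not tested except where a value is given.

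**Figure D1:**
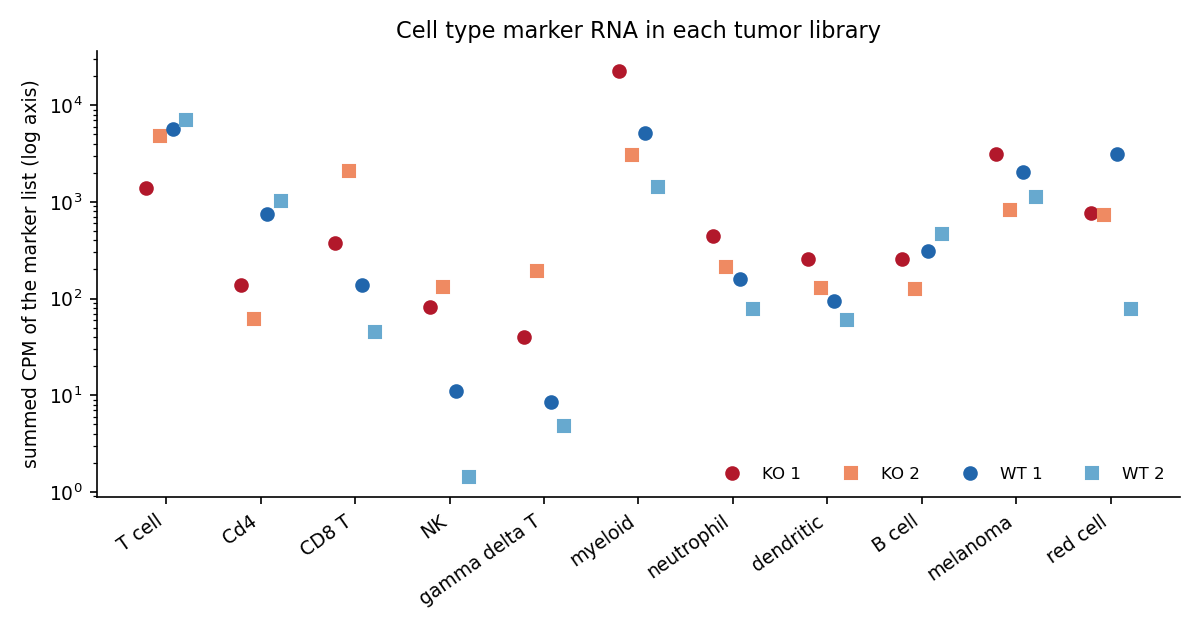
Summed CPM (log axis) of the marker genes of each cell type in the 4 tumor libraries, 1 point per library. KO replicate 1 has the highest myeloid sum (22554 CPM) and the lowest T cell sum, and both KO libraries lie below both WT libraries for Cd4 and above them for CD8 T, NK and gamma delta T cell markers.

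Of 15935 genes tested, edgeR called 0.0% (0 genes) at an adjusted p under 0.05 and over 2-fold; the smallest adjusted p was 0.177. At an unadjusted p under 0.05, 1010 genes were higher in KO (6.34%) and 563 lower (3.53%). A DESeq2 Wald test on the same libraries, the alternative test, called 555 genes higher (3.32% of 16726) and 190 lower (1.14%). In 18.0% of the genes tested both KO libraries lay above both WT libraries, and in 19.4% both lay below. When a change of over 2-fold was required as well, 1473 genes were higher (9.24%) and 965 lower (6.06%). These are referred to below as the separated genes.

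Genes were then sorted by how they differed between replicates of the same genotype. A gene followed Cd8a when it was at least 1.5-fold higher in KO replicate 2 than in KO replicate 1 and in WT replicate 1 than in WT replicate 2. It followed myeloid RNA when it was at least 1.5-fold higher in replicate 1 than in replicate 2 of both genotypes. It was steady when it differed by less than 2-fold within each genotype. Of the genes tested, 722 followed Cd8a, 1721 followed myeloid RNA and 9675 were steady, leaving 3817 in no class. Among the separated genes that were higher in KO, 127 followed Cd8a, 393 followed myeloid RNA, 570 were steady and 383 fell in no class. Among those lower in KO, 15 followed Cd8a, 16 followed myeloid RNA, 498 were steady and 436 fell in no class. A steady gene differs little within pairs and so separates with a smaller difference, which bears on the counts of this class. The separated genes that followed Cd8a or myeloid RNA were thus mostly higher in KO, whereas the lower genes were steady or in no class.

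The lower genes included most of the Treg identity list. Of its 24 genes tested, 22 lay below both WT libraries in both KO libraries and 0 above (19.4% and 18.0% of all genes), with a median log2 fold change of −2.70, against 0.04 over all genes. The exceptions were Nrp1 and Entpd1, named after their values were seen. Nrp1, a semaphorin receptor, was at 232 and 144 CPM in KO against 209 and 220 CPM in WT, and Entpd1, the ectonucleotidase CD39, at 207 and 158 against 179 and 176 CPM. At an unadjusted p under 0.05 in edgeR, 20 genes of the list were lower (3.53% of all genes). DESeq2 called 18 lower (1.14% of all genes). Of the 24, 16 were steady, as were 60.7% of all genes tested. With KO replicate 2 alone, 24 of 24 lay below both WT libraries (35.5% of all genes), and with KO replicate 1 alone 22 (38.6%). None of the 24 followed Cd8a or myeloid RNA. Following requires a gene to be higher where that RNA is higher, so a gene diluted by RNA of other cells would not enter these classes. The part of other cells in the lower levels was therefore not tested by this sorting. The log2 fold change of Cd4 itself was −3.15, and −1.50 with scaling to Cd3 RNA.

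Izumo1r was the list's gene with the smallest p. It stood at 10.3 and 10.6 CPM in KO against 217 and 355 CPM in WT, for a log2 fold change of −4.78 ± 0.40 with an adjusted p of 0.177 in edgeR and of 2.80e-19 in DESeq2. Ccr8, the chemokine receptor, was at 77.8 and 52.2 CPM against 798 and 895 CPM. Its log2 fold change was −3.70 ± 0.37. Ikzf4 was at 17.2 and 14.8 CPM in KO against 114 and 146 CPM in WT, and Ikzf2 at 59.9 and 41.6 against 277 and 487 CPM. Both Ikaros family factors were thus far lower in each KO library than in either WT library. Il2ra, the alpha chain of the IL-2 receptor, was at 61.0 and 95.7 CPM against 524 and 528 CPM, and Ctla4 at 431 and 861 against 3871 and 5390 CPM. Nt5e, the ectonucleotidase CD73, was at 34.3 and 25.0 CPM against 161 and 204 CPM. For these 7 genes the replicates of a genotype lay within 2-fold of each other, while the genotypes did not overlap. Foxp3 itself varied more, by over 2-fold within both genotypes. Its log2 fold change of −2.71 ± 0.76 had an adjusted p of 0.339 in edgeR and of 0.0116 in DESeq2.

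Since the KO libraries differed in T cell RNA, levels were also taken per 1000 CPM of Cd3 RNA. On that scale the summed Cd3 genes are equal in all libraries, and the median log2 fold change of all genes moved to 1.33. CD8+ T cells carry Cd3 RNA as well, so this scaling does not separate Treg cells from other T cells. In KO replicate 2 Cd8a was at 1139 CPM and Cd4 at 62.1 CPM, and the part of CD8+ T cells in the values below was not tested. Of the 24 Treg identity genes, 17 still lay below both WT libraries in both KO libraries and 0 above, where 1.88% and 35.5% of all genes did so. The list's median log2 fold change was −1.10. In KO replicate 2, 23 of the 24 genes lay below both WT libraries, where 4759 of all 15935 genes did so. In KO replicate 1, 17 lay below and 6 above, where 335 and 15277 of all genes did so. Izumo1r stood at 14.03 and 3.78 per 1000 in KO against 83.8 and 105 in WT, Ccr8 at 106 and 18.7 against 308 and 266, and Ctla4 at 589 and 308 against 1494 and 1600. Ikzf2 in KO replicate 1 was at 81.8, against 107 and 145 in WT. Foxp3 overlapped on this scale, with 13.1 in KO replicate 1 and 1.005 in KO replicate 2 against 9.20 and 16.9 in WT.

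**Figure D2:**
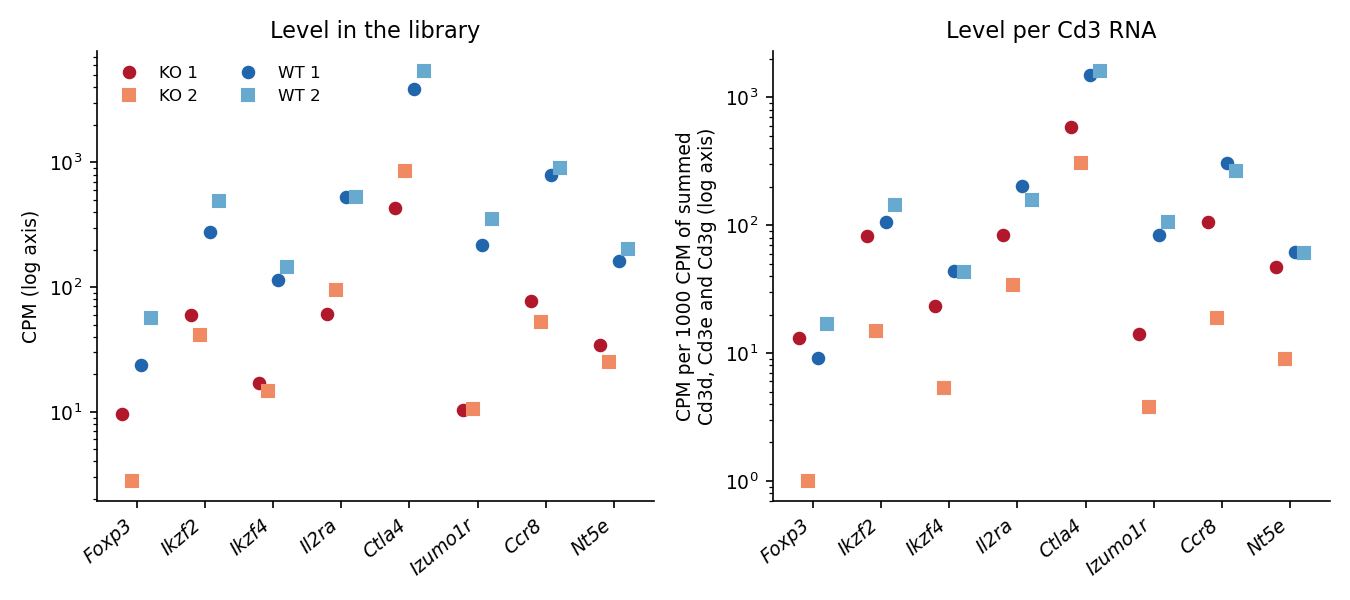
Levels of 8 Treg cell genes in the 4 tumor libraries, as CPM (left) and per 1000 CPM of summed Cd3d, Cd3e and Cd3g (right), both on log axes, 1 point per library. All 8 genes are lower in both KO libraries than in both WT libraries as CPM. Per Cd3 RNA this holds for 7, while Foxp3 in KO replicate 1 (13.1) lies between the WT libraries (9.20 and 16.9).

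Genes for the suppressive products of Treg cells did not move together. Of 12 mediators tested, 6 were lower in both KO libraries and 1 higher (19.4% and 18.0% of all genes), with a median log2 fold change of −1.21 that turned to 0.18 with scaling to Cd3 RNA, below the median of 1.33 of all genes on that scale. Il10 was at 30.3 and 4.84 CPM in KO against 94.6 and 99.5 CPM in WT, and Ebi3, a subunit of IL-27 and IL-35, at 32.1 and 8.18 against 72.2 and 104 CPM. Both were higher in KO replicate 1, the library rich in myeloid RNA, than in KO replicate 2. Areg, encoding the growth factor amphiregulin, was at 35.6 and 16.9 CPM against 245 and 198.7 CPM. Itgb8, an integrin chain that activates latent TGF-beta, was at 9.20 and 1.76 CPM against 60.2 and 53.6 CPM.

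Among 14 transcription factors of effector Treg cells, 6 lay lower in both KO libraries and 2 higher (19.4% and 18.0% of all genes). The list's median of −0.78 turned to 0.59 with scaling to Cd3 RNA, below the median of 1.33 of all genes on that scale. Gata3 stood at 33.6 and 64.8 CPM in KO against 200 and 450 CPM in WT, and Maf at 46.0 and 15.1 against 112 and 205 CPM. Batf, an AP-1 factor that supports effector Treg cells, was at 54.0 and 97.3 CPM against 162 and 184 CPM. Bach2, a repressor of effector genes and known to be held down by Blimp1, went the other way, at 7.86 and 5.83 CPM against 0.94 and 1.88 CPM. Both Maf and Bach2 hold a GC-rich stretch of the kind described below. Bcl6, the factor of follicular T cells, was at 41.0 and 15.8 CPM against 18.2 and 20.6 CPM and overlapped. Of the 13 genes of IL-2 and STAT5 signaling, 9 were lower and 2 higher against the same shares (median −0.75, and 0.36 with Cd3 scaling, also below 1.33). Socs2, a target of STAT5, was at 10.98 and 10.46 CPM in KO against 55.1 and 83.7 CPM in WT.

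The steady genes with the smallest p in the lower direction went beyond the Treg cell lists. Rln3, the neuropeptide relaxin 3, was at 1.75 and 1.37 CPM in KO against 67.1 and 50.2 CPM in WT, for a log2 fold change of −5.23 ± 0.40, and had the smallest DESeq2 adjusted p among the genes tested (4.12e-22). Msrb3, a methionine sulfoxide reductase, was at 1.28 and 0.84 CPM against 21.1 and 30.9 CPM. Igsf23 was at 1.10 and 1.12 CPM against 20.3 and 19.8 CPM, and Fam83g at 1.25 and 1.55 against 18.2 and 16.5 CPM. Ramp1, a subunit of the receptor for calcitonin gene-related peptide, was at 23.4 and 15.4 CPM against 149 and 147 CPM. Sv2c, a synaptic vesicle protein, was at 9.17 and 13.3 CPM against 83.5 and 70.3 CPM. All 6 were chosen from the steady class, which sets the small difference between their replicates. The chemokine receptors Cxcr3, at 93.4 and 187 CPM against 368 and 604 CPM, and Ccr4, at 27.4 and 13.4 against 74.2 and 126 CPM, were lower as well. The T cell surface genes Cd2 (178 and 413 CPM against 1147 and 1567 CPM) and Cd5 (56.0 and 136 CPM against 437 and 468 CPM) were also below WT in each KO library.

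Genes of cytotoxic granules were in part higher in KO. Of 17 tested, 9 were above both WT libraries in both KO libraries, 2 below and 6 overlapping (18.0% higher and 19.4% lower over all genes), the median log2 fold change was 2.44, and 10 followed Cd8a. Gzma, encoding granzyme A, was at 111 and 315 CPM in KO against 14.5 and 2.67 CPM in WT, for a log2 fold change of 4.63 ± 1.02 with an adjusted p of 0.263 in edgeR and of 8.52e-06 in DESeq2. Gzmk was at 45.7 and 263 CPM against 10.99 and 4.87 CPM. Gzmb and Prf1, which were chosen after their values were seen, overlapped between genotypes. Gzmb was at 427 and 4026 CPM in KO against 1858 and 1050 CPM in WT, so that KO replicate 1 was the lowest of the 4 libraries. Prf1, encoding perforin, was at 226 and 1228 CPM against 229 and 39.6 CPM. With KO replicate 2 alone, 15 of the 17 genes lay above both WT libraries (36.2% of all genes), and with KO replicate 1 alone 9 lay above (39.3%) and 6 below (38.6%). The median of the list was 0.73 without KO replicate 2 and 4.19 without WT replicate 1.

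Receptors of NK cells and CD8+ T cells were sorted in the same way, and 7 followed Cd8a and 4 followed myeloid RNA. Of 16 tested, 10 were higher without overlap, 1 was lower and 5 overlapped (18.0% higher and 19.4% lower over all genes), with a median log2 fold change of 3.32. Klrk1, encoding the activating receptor NKG2D, was at 146 and 397 CPM in KO against 25.1 and 3.85 CPM in WT, and Klrc2, encoding NKG2C, at 5.88 and 17.6 against 1.14 and 0.60 CPM. Crtam was at 13.7 and 48.9 CPM against 5.38 and 0.89 CPM. The 1 lower gene was Klrg1, an inhibitory receptor of effector T cells and effector Treg cells, at 13.6 and 40.4 CPM in KO against 346 and 305 CPM in WT. Reads were counted only where they mapped to 1 place, so levels of close paralogs in the Klr and Gzm families are uncertain.

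Eomes was at 17.2 and 57.2 CPM in KO against 2.76 and 1.15 CPM in WT, for a log2 fold change of 4.25 ± 0.82 with an adjusted p of 0.228 in edgeR and of 3.78e-06 in DESeq2. It holds a GC-rich stretch of the kind described below. Among all separated genes that followed Cd8a, those with the smallest p were Ly6c2, Ret, Tcrg-C4, Klra3 and Eomes. Ly6c2, a surface antigen of monocytes and memory CD8+ T cells, was at 931 and 1944 CPM against 177 and 99.9 CPM. Tcrg-C4 and Tcrg-C2 encode constant regions of the gamma chain of the gamma delta T cell receptor. Tcrg-C2 was at 30.3 and 173 CPM in KO against 5.48 and 1.30 CPM in WT, and Tcrg-C4 at 3.77 and 8.60 against 0.44 and 0.25 CPM. Trdc, the constant region of the delta chain, was steady at 3.62 and 2.49 CPM against 2.05 and 2.54 CPM and overlapped. Ifng, the effector cytokine, was at 48.1 and 345 CPM against 55.6 and 45.1 CPM, so that KO replicate 1 lay between the WT libraries.

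The cell cycle list followed Cd8a in 29 of 34 genes, and most of these overlapped between the genotypes. Only 2 of the 34, Mki67 and E2f1, were higher in both KO libraries and 0 were lower (18.0% and 19.4% of all genes). The median log2 fold change of 0.34 turned to −0.36 without KO replicate 2 and −0.28 without WT replicate 2, and was 0.79 without KO replicate 1 and 1.36 without WT replicate 1. Mki67 was at 14.3 and 25.2 CPM in KO against 12.8 and 9.41 CPM in WT. E2f1 was at 33.5 and 37.3 CPM against 10.7 and 4.64 CPM and carries such a stretch too. In KO replicate 2 alone, 32 of the 34 genes lay above both WT libraries (36.2% of all genes), and in KO replicate 1 alone 2 did so (39.3%) and 5 lay below (38.6%).

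A further group followed myeloid RNA. The sum of the 20 myeloid markers sets the direction of this class, so that 19 of them followed it was largely fixed in advance. Of the 20, 2 were higher in KO without overlap (18.0% of all genes). Lyz2, encoding lysozyme, was at 8929 CPM in KO replicate 1, 789 in KO replicate 2, 1465 in WT replicate 1 and 122 in WT replicate 2, and Csf1r, the receptor of macrophage growth factor, at 1196, 119, 137 and 24.6 CPM. Their levels in KO replicate 2 lay between those of the WT libraries. Of 10 MHC class II genes tested, 7 followed myeloid RNA and 5 were higher without overlap (18.0% of all genes). The median log2 fold change of the list was 2.47, and 0.545 without KO replicate 1. H2-Ab1 was at 3509 and 554 CPM in KO against 499 and 99.5 CPM in WT, and H2-Aa at 2309 and 354 against 266 and 54.1 CPM. The gap between KO replicate 2 and WT replicate 1 was small beside the gap between the KO replicates. Without KO replicate 1 the log2 fold change of H2-Ab1 was 0.88, against 2.76 with all libraries. Of 21 chemokine ligands, 13 followed myeloid RNA, 5 were higher and 0 lower (18.0% and 19.4% of all genes). Their median log2 fold change of 1.27 was 0.29 without KO replicate 1, 0.45 without WT replicate 2 and 3.11 without WT replicate 1.

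Some genes of this group differed more between the genotypes than between replicates. Plac8 was at 788 and 464 CPM in KO against 136 and 85.1 CPM in WT, with with an SE of 0.44 on the log2 scale. Alox15, a lipoxygenase of macrophages and eosinophils, was at 11.4 and 3.55 CPM against 0.37 and 0.19 CPM. Lamp1, a lysosomal membrane protein that is exposed when cytotoxic cells degranulate, was at 1018 and 250 CPM against 54.9 and 23.2 CPM, a log2 fold change of 4.02 ± 0.86 with an adjusted p of 0.257 in edgeR and of 2.38e-05 in DESeq2. Rhoq (34.9 and 20.6 CPM against 4.07 and 2.39 CPM), Zfand5 (262 and 133 CPM against 39.7 and 22.2 CPM) and Dirc2 (54.3 and 21.5 CPM against 5.75 and 2.93 CPM) complete, with Plac8 and Alox15, the 5 higher genes of this class with the smallest p. Lamp1, Rhoq, Zfand5 and Dirc2 all hold a GC-rich stretch, whereas Plac8 and Alox15 do not. In the lower direction Acta2, smooth muscle actin, was at 2.17 and 0.74 CPM against 10.7 and 5.501 CPM.

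**Figure D3:**
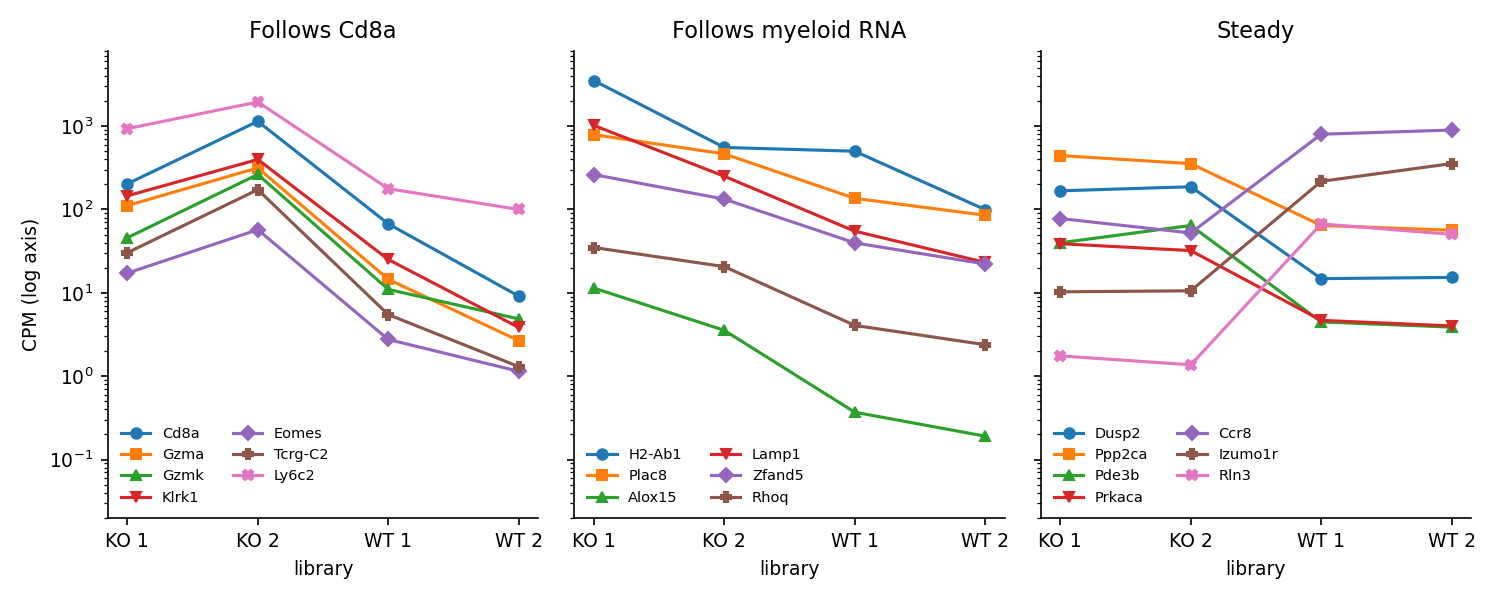
CPM (log axis) of named genes in the 4 tumor libraries, with a line joining the values of 1 gene. Genes that follow Cd8a (left) peak in KO replicate 2 and genes that follow myeloid RNA (middle) in KO replicate 1, while the steady genes (right) differ mainly between the genotypes, such as Dusp2 (167 and 187 CPM in KO against 14.8 and 15.3 CPM in WT).

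The steady genes that were higher in KO shared a feature of sequence. A GC-rich stretch was defined as 200 nt of over 75% G and C in the longest transcript of a gene. Of the steady separated genes higher in KO, 343 of 557 with a transcript (61.6%) held one, against 14.9% of all genes tested and 41 of 487 (8.42%) of the steady genes lower in KO. The share was 22.4% in the higher genes that followed Cd8a and 28.8% in those that followed myeloid RNA. By the GC content of the richest stretch, the median log2 fold change was between −0.04 and 0.04 in every class of genes up to 75%. It was 0.32 in the 1546 genes from 75 to 80%, 1.08 in the 646 genes from 80 to 85%, and 0.46 in the 119 genes above. In the genes from 80 to 85%, 64.4% were higher without overlap and 4.18% lower. The median level of these genes against the mean of the 4 libraries was 0.70 in KO replicate 1, 0.33 in KO replicate 2, −0.49 in WT replicate 1 and −0.56 in WT replicate 2 on the log2 scale, so that both KO libraries lay above both WT libraries.

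The GC-rich stretch lay near the start of the transcript in GC-rich genes in general. In the steady higher genes it began at a median of nucleotide 81, and in genes with a coding sequence it lay before that sequence in 45.0%, across its edge in 29.9% and inside it in 24.5%. Over all 2309 GC-rich genes tested the median start was also 81, and these shares were 48.9%, 33.8% and 16.7%. With the same calculation on log2(CPM + 0.5), the 646 genes from 80 to 85% had a median difference KO minus WT of 0.90 in tumor and of 0.01 in spleen. In the 1546 genes from 75 to 80% it was 0.23 in tumor and 0.21 in spleen. In the 119 genes above 85% it was 0.36 in tumor and −0.17 in spleen. The difference between tissues was not tested. Without genes that hold such a stretch and genes with no transcript matched, edgeR called 0 of 13181 genes, and at an unadjusted p under 0.05, 464 genes were higher and 464 lower. With all genes these counts were 1010 and 563. No cause of the pattern was tested.

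**Figure D4:**
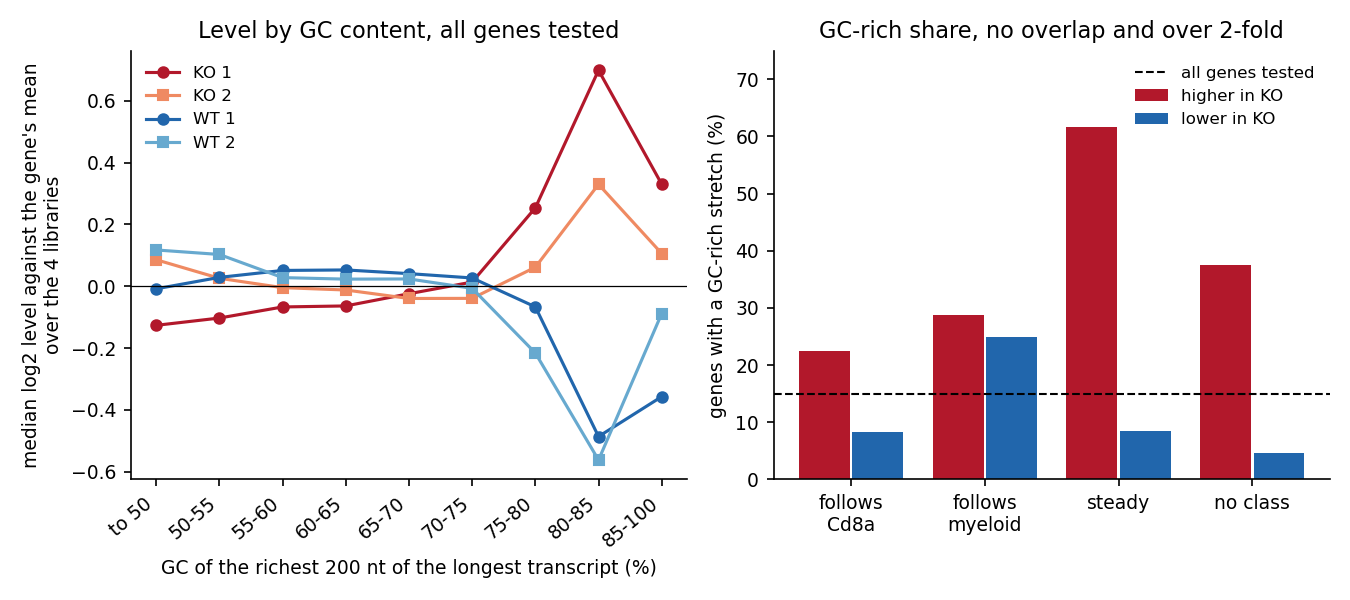
Left, median log2 level of genes against their mean over the 4 tumor libraries, by the GC content of their richest 200 nt, 1 line per library; both KO libraries lie above both WT libraries in the classes above 75%, and from 80 to 85% the medians are 0.70 and 0.33 in KO and −0.49 and −0.56 in WT. Right, bars give the percent of separated genes with a GC-rich stretch in each class and direction, with 14.9% of all genes tested as the dashed line; it is 61.6% in the steady genes higher in KO.

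Of the 10 steady genes with the smallest p in the higher direction, 9 held a GC-rich stretch, and Mtch1 did not. Dusp2, a phosphatase of MAP kinases induced in activated T cells, was at 167 and 187 CPM in KO against 14.8 and 15.3 CPM in WT. Its log2 fold change was 3.56 ± 0.29, with an adjusted p of 0.177 in edgeR and of 5.98e-14 in DESeq2. Its stretch spans nucleotides 141 to 340 of the transcript, inside the coding sequence, with 80% GC. Ppp2ca, the catalytic subunit of protein phosphatase 2A, was at 442 and 354 CPM against 64.3 and 56.3 CPM. Pde3b, which degrades cyclic AMP, was at 39.8 and 64.2 CPM against 4.47 and 3.88 CPM, and Prkaca, a catalytic subunit of the cyclic AMP dependent kinase, at 38.8 and 32.1 against 4.67 and 4.01 CPM. Mtch1, of the mitochondrial outer membrane, was at 80.9 and 68.2 CPM against 10.8 and 8.52 CPM. The remaining genes were Rnf187, Btbd1, Sgpp1, Otulin and the corepressor Ctbp1, with log2 fold changes of 2.83, 2.58, 2.53, 3.14 and 2.70. Other genes of the lists with a stretch over 75% included Jund (144 and 156 CPM against 34.1 and 29.6 CPM) and Dusp5 (385 and 402 CPM against 108 and 90.8 CPM). Bach2, Klf2 and Bcl2 held one too and were higher in both KO libraries. Maf and Hif1a, with richest stretches at 87% and 76% GC, were lower in both KO libraries.

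The same contrast showed in the promoters, taken here as 250 bases before to 50 bases after the gene start in RefSeq (GRCm38.p6). The 8 named steady higher genes with a promoter in that table had a median GC content of 70.2% and a median of 31 CG dinucleotides, and the 9 named steady lower genes 55.7% and 8. Over the whole classes the medians were 67% and 27 in the 422 steady higher genes and 58.7% and 15 in the 295 steady lower genes. They were 60.3% and 20 in the 10429 genes tested that had a promoter there, and 52.7% and 7 over all 27025 promoters. The named lower genes varied, and Izumo1r and Ccr8 were among those poorest in CG dinucleotides. Msrb3, Sv2c, Fam83g and Nt5e, also lower in KO, had 38, 32, 26 and 23 of them. The 4 below are examples of higher genes (Dusp2 at chr2:127335909-127336208 and Ppp2ca at chr11:52098574-52098873, both plus strand) and of lower genes (Izumo1r at chr9:14903718-14904017, minus strand, and Ccr8 at chr9:120091883-120092182, plus strand). They run 5′ to 3′ along the gene, with each CG dinucleotide in capitals, 26, 34, 3 and 2 in the order given.
Dusp2: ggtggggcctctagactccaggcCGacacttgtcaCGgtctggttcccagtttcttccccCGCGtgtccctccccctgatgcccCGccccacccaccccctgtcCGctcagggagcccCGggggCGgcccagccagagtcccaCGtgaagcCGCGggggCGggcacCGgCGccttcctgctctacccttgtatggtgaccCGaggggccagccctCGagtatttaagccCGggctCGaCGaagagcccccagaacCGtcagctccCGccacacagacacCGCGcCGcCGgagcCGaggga
Ppp2ca: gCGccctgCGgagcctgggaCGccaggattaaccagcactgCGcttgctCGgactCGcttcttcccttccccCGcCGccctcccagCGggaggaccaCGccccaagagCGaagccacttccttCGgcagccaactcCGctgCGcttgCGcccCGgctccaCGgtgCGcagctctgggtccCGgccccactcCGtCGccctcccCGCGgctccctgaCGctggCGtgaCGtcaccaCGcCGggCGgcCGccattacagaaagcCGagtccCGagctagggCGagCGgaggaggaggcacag
Izumo1r: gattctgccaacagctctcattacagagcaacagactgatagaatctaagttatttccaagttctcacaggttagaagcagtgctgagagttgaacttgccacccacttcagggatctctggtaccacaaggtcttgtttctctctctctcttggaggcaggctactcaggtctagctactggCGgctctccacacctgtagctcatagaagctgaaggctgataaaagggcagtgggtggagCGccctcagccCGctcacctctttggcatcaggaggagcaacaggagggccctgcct
Ccr8: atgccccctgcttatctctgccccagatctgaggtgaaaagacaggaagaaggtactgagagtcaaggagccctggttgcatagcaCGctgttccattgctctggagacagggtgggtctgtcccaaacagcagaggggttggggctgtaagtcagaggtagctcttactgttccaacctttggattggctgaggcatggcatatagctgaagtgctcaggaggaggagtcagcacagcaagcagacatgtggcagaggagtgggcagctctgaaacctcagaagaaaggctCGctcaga
The core of the Blimp1 recognition sequence, GAAAGT, was searched on both strands. It was absent from the 8 promoters of the named higher genes and present in 1 of 9 of the named lower genes (Sv2c), against 14.3% of all promoters, 12.7% of those of genes tested, 9.24% of the steady higher and 9.15% of the steady lower genes. A match is a description of these windows and does not show binding.

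Genes of quiescent and memory T cells overlapped in part with the GC-rich genes, with 8 of 19 tested holding a stretch. Of the 19, 10 were higher in both KO libraries and 0 lower (18.0% and 19.4% of all genes), with a median log2 fold change of 0.65, and 7 of the 10 held a GC-rich stretch. The median was 0.33 without KO replicate 1 and 1.0029 without KO replicate 2. Tcf7, the factor of memory and stem-like T cells, held none and was at 51.5 and 62.2 CPM in KO against 8.77 and 18.6 CPM in WT, for a log2 fold change of 2.05 ± 0.45 with an adjusted p of 0.264 in edgeR and of 0.00821 in DESeq2. Klf2, which drives expression of lymph node homing genes, was at 83.6 and 26.4 CPM against 4.03 and 7.95 CPM. Bcl2, which protects from apoptosis, was at 74.9 and 126 CPM against 15.6 and 34.1 CPM, and Satb1, a chromatin organizer of T cells whose richest stretch is at 74.5% GC, at 59.4 and 92.1 against 21.3 and 30.3 CPM.

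Lists of other functions had medians closer to 0, and their counts stand against 18.0% of all genes that were higher and 19.4% that were lower without overlap. Of 12 MHC class I genes, 7 were lower and 2 higher (median −0.47, and 0.89 with Cd3 scaling, below the median of 1.33 of all genes on that scale). Of 30 interferon-stimulated genes, 4 were lower and 0 higher (median −0.03, and 1.57 with Cd3 scaling). In this list the KO libraries went opposite ways. KO replicate 1 lay above both WT libraries in 18 genes (39.3% of all genes) and below in 4 (38.6%). KO replicate 2 lay below both in 23 (35.5%) and above in 0 (36.2%). Of 26 genes of glycolysis and hypoxia, 9 were lower and 0 higher (median −0.15, and 1.24 with Cd3 scaling). All but 1 of the 13 protein-coding genes of the mitochondrial genome were higher in both KO libraries, with a median log2 fold change of 0.41, and 0 passed an unadjusted p of 0.05. Of 85 cytosolic ribosomal protein genes 1 was higher without overlap, with a median of 0.09. Here KO replicate 1 lay below both WT libraries in 79 genes (38.6% of all genes) and KO replicate 2 above both in 79 (36.2%). Of the 27 early response genes, 9 were higher and 6 lower (median 0.36). Mmp9, a metalloproteinase on the neutrophil list, of which 4 genes were higher and 3 overlapped, was lower at 16.9 and 9.06 CPM in KO against 65.9 and 66.3 CPM in WT.

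**Figure D5:**
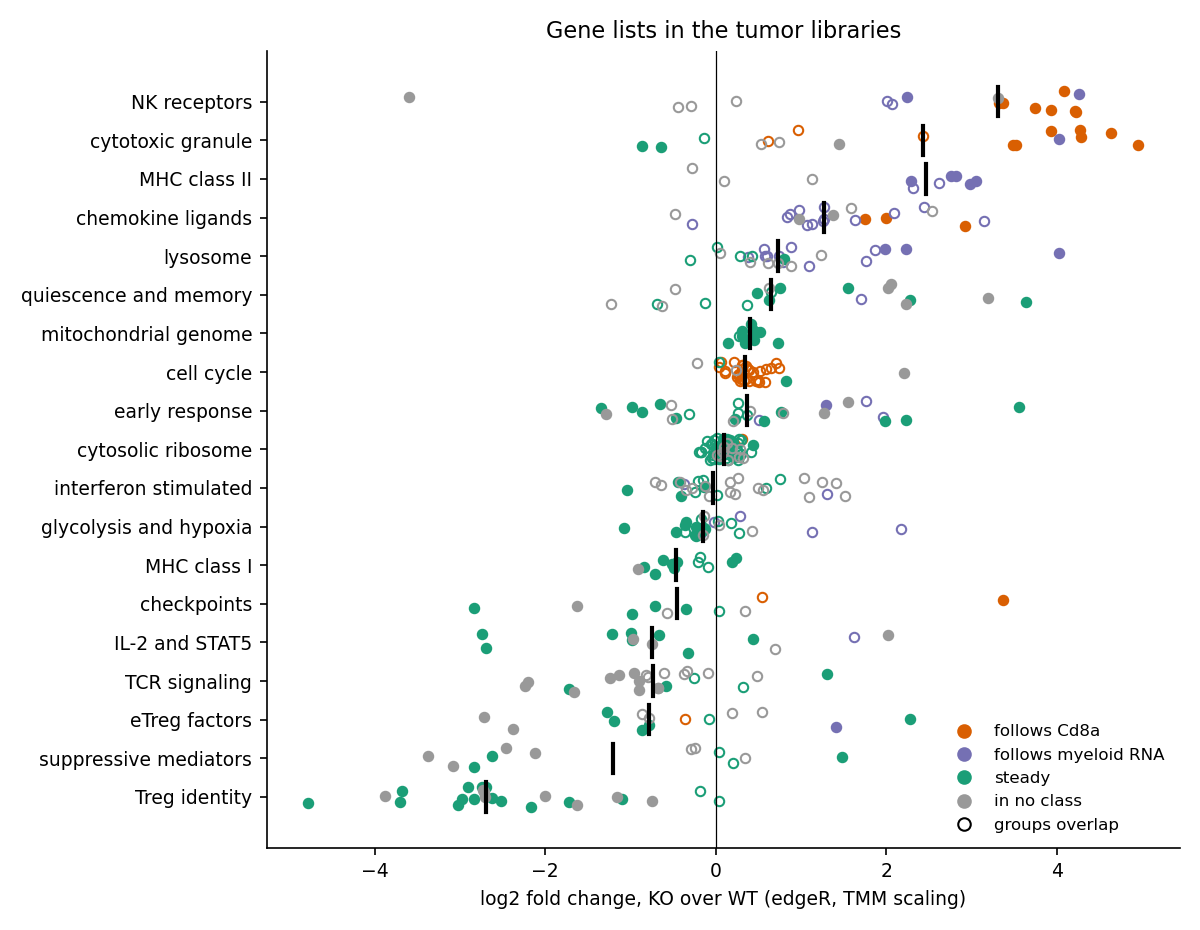
Log2 fold change KO over WT (edgeR, TMM scaling) of each gene tested in 19 lists, 1 point per gene, colored by its class, with open points where the genotypes overlap and a black bar at the median. The Treg identity list lies lowest (median −2.70) and NK receptors highest (3.32). With scaling to Cd3 RNA the median of all genes moves to 1.33. The medians of the suppressive mediators, eTreg factors, IL-2 and STAT5, MHC class I, interferon and glycolysis lists then turn positive. Of these only the interferon list (1.57) lies above the median of all genes.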

How the data were processed

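The labels name total RNA that was depleted of rRNA and primed with random hexamers. Per the labels' processing notes and the study's methods, the authors trimmed reads with Trimmomatic 0.36, aligned them to GRCm38 with STAR 2.5.2b and deposited a raw count of uniquely mapped reads in the exons of each gene, made with featureCounts of Subread 1.5.2. Whether counting used strand was not given in the sources used here, so overlapping antisense genes cannot be told apart. A deposited table of normalized values was not used. The deposited counts of the 4 tumor libraries were tested here with edgeR 4.0.16 (quasi-likelihood test, TMM scaling, filterByExpr, two-sided, Benjamini-Hochberg adjustment) in R 4.3.3, with DESeq2 1.42.0 as an alternative, and both were tested on simulated data. CPM use TMM library sizes, and classes use log2 CPM with a prior count of 2. GC content came from GENCODE transcripts of GRCm38, of which 15492 genes (97.2%) had one. Named genes were Prdm1, the cell type markers, genes the study's text names, up to 5 per list with the smallest p among those without overlap, and the 10 steady and 5 following genes per direction with the smallest p and at least 5 CPM. The lists, classes and comparisons were chosen with earlier results of these data known. Other alternatives changed scaling, filter, samples, replicate block and threshold.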

Additional observations from a re-analysis of the deposited data

How the results depend on the processing

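The number of genes called at an adjusted p under 0.05 depended on the fit. It was 0 in edgeR with TMM scaling, with DESeq2 size factors, with a mean of at least 50 counts, at an absolute log2 fold change over 2, without GC-rich genes and without any 1 tumor library (range 0 to 0). It was 745 with the DESeq2 Wald test, 8 with scaling to Cd3 RNA, 1072 without a filter on low counts and 135 in a fit on all 8 libraries. With replicate number as a block it was 728. Only 2 pairs share a number and the labels do not say that a number marks a shared source. Over genes, the differences between replicates 1 and 2 correlated between genotypes with r = 0.27, so the block is not taken as a pairing. The cause of these differences was not tested. Steady separated genes numbered 570 higher and 498 lower, 286 and 187 when following needed 2-fold and steady under 1.5-fold, and 66 lower with Cd3 scaling. Classes could not be formed without a library.

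With Cd3 scaling, which moved the median of all genes to 1.33, the median log2 fold change was −1.10 for Treg identity, 2.26 for quiescence and memory, 0.18 for suppressive mediators, 0.59 for eTreg factors, 0.36 for IL-2 and STAT5, 1.57 for interferon-stimulated genes, 0.89 for MHC class I and 1.24 for glycolysis, and the log2 fold change was 0.60 for Prdm1 and 1.34 for Nrp1. Leaving out 1 library at a time, the median ran from −2.87 to −2.37 for Treg identity, from 0.33 to 1.0029 for quiescence and memory and from 0.73 to 4.19 for cytotoxic granule genes, and from −0.42 (without KO replicate 2) to 0.46 for cytosolic ribosome genes. Of 79 named genes, 73 kept their sign without each library. The exceptions ran, in log2 fold change, from −1.78 to 1.47 for Gzmb and from −0.080 to 2.78 for Ifng, both lowest without KO replicate 2. They ran from −0.57 to 0.098 for Nrp1 (highest without KO replicate 2), and from −0.014 to 5.31 for Lyz2, −0.17 to 0.21 for Entpd1 and −0.30 to 1.06 for Bcl6, lowest without KO replicate 1. With the replicate block Gzmb was at −0.092. The check of each KO library alone against both WT libraries was chosen after seeing the data. With 2 libraries per genotype, a difference such as that of Foxp3, which varied over 2-fold within genotypes, has wide error at any depth.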

Other observations

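The immunoglobulin genes Ighg2c, Igkc and Jchain, which were on no list and were chosen after their values were seen, were highest in KO replicate 1. Ighg2c, a heavy chain constant gene, was at 70.5 and 3.62 CPM in KO against 0.13 and 0.03 CPM in WT, the last under the floor of 3 counts. Igkc was at 351 and 50.9 CPM against 60.9 and 16.8 CPM, and Jchain at 73.7 and 12.5 against 14.5 and 0.10 CPM, and both overlapped. The red cell markers summed to 766 and 727 CPM in KO, and to 3150 and 77.6 CPM in WT. Of 17 genes of cyclic AMP signaling, 6 were higher in both KO libraries and 4 lower (18.0% and 19.4% of all genes), and 7 held a GC-rich stretch (14.9% of all genes).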
